A study of Mus musculus with 18 samples.

Results

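Open chromatin was described at 10 genes of the matrix metalloproteinase system, out of 21951 protein-coding genes of the mouse. They were 6 proteases (Mmp2, Mmp9, Mmp14, Mmp15, Mmp16 and Mmp24) and the 4 tissue inhibitors of metalloproteinases (Timp1, Timp2, Timp3 and Timp4). The genes were chosen by name. Each of the 18 deposited peak lists was searched for peaks that overlapped a gene from 10 kb upstream of its annotated start to its end (mm10, GENCODE M21), a stretch called its window below.

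Matrix metalloproteinases are zinc-dependent proteases that cut collagens, laminins and other proteins of the extracellular matrix, and they also release growth factors and cell-surface proteins. Mmp2 and Mmp9, the gelatinases, are secreted, while Mmp14, Mmp15, Mmp16 and Mmp24 encode membrane-type enzymes that stay anchored at the cell surface. TIMPs bind the catalytic site of the active enzymes, and TIMP2 also takes part in the activation of proMMP2 by MMP14 at the cell surface. In the eye, these proteins turn over the basement membranes of the retina and its vessels and the outflow tissue of the anterior segment, and TIMP3 is a component of Bruch's membrane under the pigment epithelium.

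The libraries were made by ATAC-seq, in which a transposase cuts and tags accessible DNA, from whole retina (bulk retina in the labels) of WT mice, 3 libraries in each of 6 groups. Mice were 3 months (3mo) or 18 months (18mo) old. Each age had retinas from the eye whose intraocular pressure was raised to 30 mmHg during 1 hour (IOP), retinas from the opposite eyes (contralateral controls) and retinas of untreated mice. IOP and contralateral retinas were collected on day 2 per the labels, while the study's text gives another day. Dasatinib, a kinase inhibitor, is mentioned in a treatment note common to the labels, though none of the 18 libraries is labelled as drug-treated. The labels' preparation note mentions crosslinking and immunoprecipitation next to ATAC-seq amplification, whereas fresh nuclei were transposed according to the methods text. The pressure rise is an acute model in 1 eye, so an IOP and a contralateral library may come from the same animal. The labels do not tie libraries to animals, and p-values therefore measure the spread between libraries only.

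The lists held 36011 to 66160 peaks per library. Reads per region were not part of the lists, so a region that was not called may still have been open below the caller's threshold. Untreated libraries stood apart in a technical measure: their shortest listed peak was 79 to 89 bp, against 114 to 157 bp in the IOP and contralateral libraries, and their median peak width was 161 to 192 bp against 264 to 395 bp. The 12 other libraries held 5 with a shortest peak of 114 to 122 bp and 7 with 148 to 157 bp, and both kinds occurred in each of their 4 groups. Of the markers of cell types examined at their gene starts, the 4 rod genes were called in all 18 libraries, the 5 genes of microglia and macrophages in none, the 4 vessel genes in 0 to 9 and the 4 genes of tissues outside the eye in none. The other lists were mixed. Genes of ganglion cells and of pigment epithelium were called in 0 to 18 libraries and those of astrocytes in 1 to 18. Genes of cones and of amacrine and horizontal cells were called in 4 to 18, those of bipolar cells and Müller glia in 9 to 18 and those of lens in 0 to 9. In bulk retina a region open in few cells and a region weakly open in many cannot be told apart.

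Called and uncalled starts among the 10 genes were first set beside their promoter sequences, since these differ visibly. RefSeq promoter windows (300 bases from 250 bases before the RefSeq start, build GRCm38.p6) were matched for 7 of the 10 genes, and Mmp2, Mmp9 and Mmp16 were not among them. The part of each window that lies upstream of both the RefSeq and the GENCODE start is printed 5′ to 3′ on the gene's strand, first for Mmp15, Mmp24 and Timp3, whose starts were called in 18, 18 and 14 libraries, then for Mmp14, Timp1 and Timp4, whose starts were called in 2, 0 and 0. Capitals mark the letters GGGCGG, the core of Sp and KLF sites, or their reverse complement.
Mmp15 (chr8:95352046-95352267, + strand): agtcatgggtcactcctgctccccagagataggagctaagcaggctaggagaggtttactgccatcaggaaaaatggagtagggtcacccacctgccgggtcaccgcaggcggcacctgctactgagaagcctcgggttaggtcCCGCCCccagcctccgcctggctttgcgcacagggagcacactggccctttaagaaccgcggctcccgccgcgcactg
Mmp24 (chr2:155775092-155775341, + strand): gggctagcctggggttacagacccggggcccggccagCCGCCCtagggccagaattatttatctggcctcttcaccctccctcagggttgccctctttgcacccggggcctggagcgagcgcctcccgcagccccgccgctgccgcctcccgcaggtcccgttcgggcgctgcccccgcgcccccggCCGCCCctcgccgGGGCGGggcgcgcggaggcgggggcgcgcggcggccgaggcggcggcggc
Timp3 (chr10:86300162-86300371, + strand): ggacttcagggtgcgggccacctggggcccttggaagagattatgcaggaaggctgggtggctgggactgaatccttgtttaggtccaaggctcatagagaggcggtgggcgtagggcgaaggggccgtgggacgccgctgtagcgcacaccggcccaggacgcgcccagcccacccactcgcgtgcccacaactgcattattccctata
Mmp14 (chr14:54431348-54431597, + strand): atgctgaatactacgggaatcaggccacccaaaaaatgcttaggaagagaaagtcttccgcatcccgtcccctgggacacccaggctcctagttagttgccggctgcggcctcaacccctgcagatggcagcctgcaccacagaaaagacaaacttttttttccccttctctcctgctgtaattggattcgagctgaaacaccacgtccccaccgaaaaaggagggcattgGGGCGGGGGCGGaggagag
Timp1 (chrX:20869916-20870165, + strand): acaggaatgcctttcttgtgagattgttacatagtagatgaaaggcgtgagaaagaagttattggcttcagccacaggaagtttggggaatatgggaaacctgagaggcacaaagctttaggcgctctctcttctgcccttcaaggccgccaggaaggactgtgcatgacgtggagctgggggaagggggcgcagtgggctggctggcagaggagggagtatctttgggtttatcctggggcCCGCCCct
Timp4 (chr6:115252206-115252455, - strand): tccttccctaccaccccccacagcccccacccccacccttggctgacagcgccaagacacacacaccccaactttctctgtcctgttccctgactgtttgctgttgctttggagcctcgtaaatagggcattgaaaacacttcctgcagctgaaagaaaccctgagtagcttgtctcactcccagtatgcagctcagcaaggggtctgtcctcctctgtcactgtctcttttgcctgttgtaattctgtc

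The promoters with frequent calls were rich in CpG. The 300-base windows held 44 CpG in Mmp24, 25 in Timp2, 24 in Timp3 and 22 in Mmp15, against 10 in Mmp14, 8 in Timp1 and 2 in Timp4. Over all genes in the table the median was 22 CpG for those with a called start in all 18 libraries (8728 genes), 3 for those with none (5768 genes) and 7 over all 27025. The letters GGGCGG occurred on either strand 3 times in the Mmp24 window, 2 times each in Mmp14 and Timp3 (in Timp3 downstream of the printed part), 1 time each in Mmp15, Timp1 and Timp2 and not in Timp4. They were held by 35.9% of all promoters, by 68.3% of those with a start called in all 18 libraries and by 16.3% of those with none. Letters for AP-1 (TGAGTCA), STAT (TTCNNNGAA) and CRX or OTX2 (TAATCC), searched on both strands, were in none of the 7 windows, and were held by 5.17%, 8.47% and 7.16% of all promoters. A match to letters is a description and not a bound site.

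The 4 starts that were called in every library belonged to 3 of the 4 membrane-type proteases, Mmp15, Mmp16 and Mmp24, and to the inhibitor Timp2. A start was counted as called when a peak lay within 1 kb on either side of it, and 50.8% of protein-coding genes had a called start in all 18 libraries. On lists cut to an equal number of peaks (36011), the region at the Mmp24 start was called in 13 libraries. It was then called in 0 of 3 3mo untreated and 1 of 3 18mo untreated libraries. The start regions of Mmp15, Mmp16 and Timp2 were still called in all 18. On the full lists the start of Timp3 was called in 14 libraries, and those of Mmp2 and Mmp14 in 2 each. No peak lay within 1 kb of the start of Mmp9, Timp1 or Timp4 in any library, as was the case for 36.3% of protein-coding genes. The Mmp9 gene record begins 7439 bp upstream of its first basic transcript, and no library had a peak within 1 kb of that transcript's start either.

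**Figure D1:**
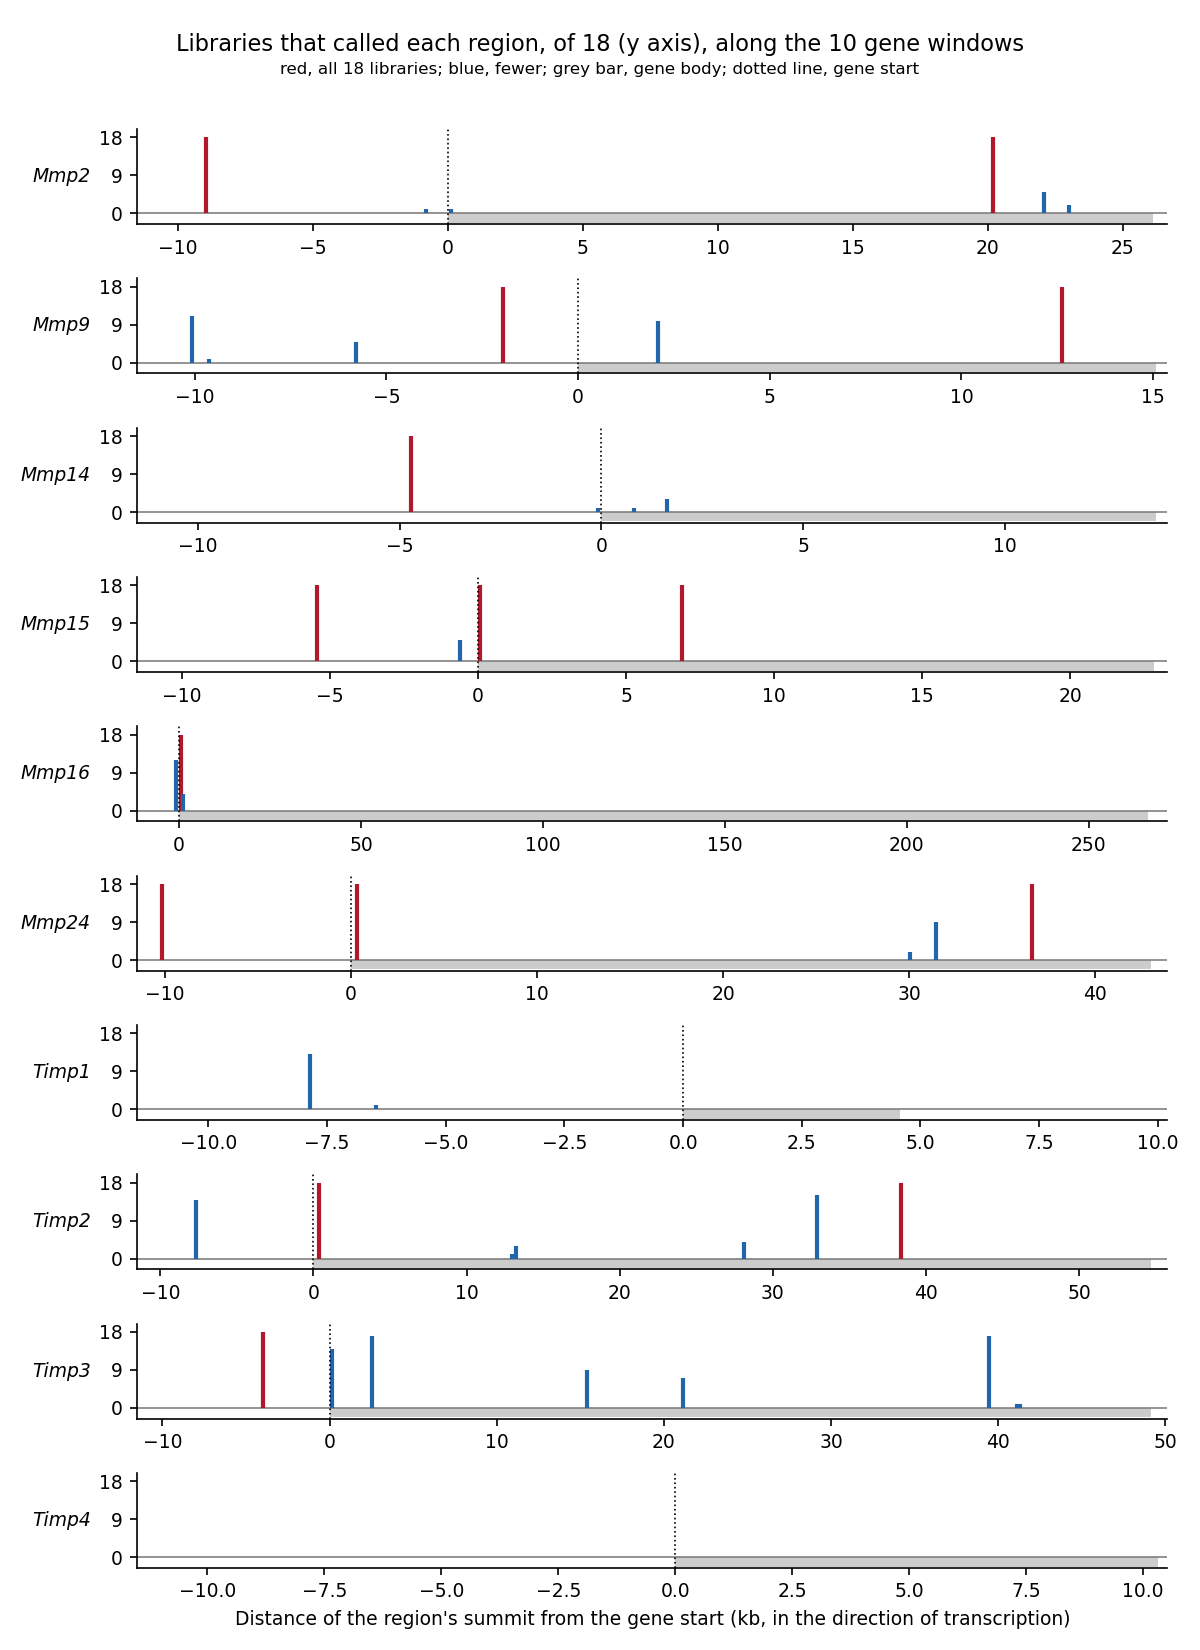
Each panel is 1 gene window, with the distance of a region's summit from the gene start in kb on the x axis and the number of the 18 libraries that called the region on the y axis (red, all 18; blue, fewer; grey bar, gene body). Red lines stand at the starts of Mmp15, Mmp16, Mmp24 and Timp2, the highest line at the Timp3 start reaches 14, and the Timp4 window is empty.

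Peaks of all libraries that overlapped by at least 1 bp were merged into regions. The 10 windows held 45 merged regions, of which 15 were called in all 18 libraries, 21 in 2 to 17 and 9 in 1 library only. Of the 36 regions called in at least 2 libraries, 41.7% were called in all 18, against 33.6% of the 73567 such regions of the genome. By the position of their summits, 19 of the 36 lay in introns, 8 between genes, 5 in promoters (1 kb upstream to 100 bp downstream of a transcript start) and 4 in exons. In the 200 bp around the summit, CRX or OTX2 letters occurred in 6 of the 36 regions (16.7%, against 15.4% of all regions), AP-1 letters in 2 (5.56% against 4.72%), STAT letters in 1 (2.78% against 4.40%) and Sp or KLF letters in 4 (11.1% against 18.7%).

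Mmp2, which encodes gelatinase A, had a start that was rarely called, between regions called in every library. The first lay 8953 bp upstream of the start (chr8:92818048-92818738, intergenic) and the second 20188 bp downstream, in an intron (chr8:92846703-92847973). Both were called in all 18 libraries and ranked high. The rank given here is the percentile of the authors' −log10 q-value of a region among the 24751 regions called in every library, taken within each library, with 100 for the strongest. Median percentiles over the 18 libraries were 64.7 for the upstream and 72.9 for the intronic region, whose median fold of pileup over local background was 14.7 and 9.55. At the start itself, 1 peak in 3mo contralateral control replicate 2 (3.55-fold) lay 108 bp downstream, in the 5′ UTR, and 1 in 18mo contralateral control replicate 3 (5.05-fold) lay 796 bp upstream.

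Mmp9, which encodes gelatinase B, showed the same arrangement of recurring regions away from the start. The regions 1949 bp upstream of the gene record's start (chr2:164938429-164939368) and 12634 bp downstream of it, in a coding exon (chr2:164952995-164953749), were called in all 18 libraries, with median percentiles of 46.6 and 60.7. A further region 2085 bp downstream was called in 10 libraries, and another 10072 bp upstream in 11, in 9 of which the peak reached into the window. The fifth recurring region, 5783 bp upstream (chr2:164934859-164935084, intergenic), was called in 5 libraries, all of them 18mo controls.

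Among the membrane-type enzymes, Mmp14 (MT1-MMP, an activator of proMMP2) stood apart. Its only region called in all 18 libraries lay 4713 bp upstream, at the start of Mrpl52, a neighbour on the same strand that encodes a mitochondrial ribosomal protein (chr14:54426416-54427230, median fold 14.5). Near its own start it had 1 peak 86 bp upstream in 18mo contralateral control replicate 1 (4.39-fold) and 1 peak 800 bp downstream in 3mo IOP replicate 1 (4.44-fold). An intronic region 1640 bp downstream was called in 3 libraries, none of them IOP. The peak at the Mrpl52 start was the only one listed in the Mmp14 window in all 3 18mo IOP libraries and in 10 of the 15 others.

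Mmp15 (MT2-MMP) had 3 regions called in all 18 libraries. They lay at the start (chr8:95352047-95353642, summit 66 bp downstream), in an intron 6883 bp downstream (chr8:95358769-95359434) and 5433 bp upstream, in the 3′ part of Usb1 (chr8:95346386-95347179). The median folds were 5.81, 9.17 and 6.48, so the intronic region was higher over its background than the start. A narrow region 611 bp upstream of the start was called in 5 libraries, 4 of them untreated.

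Mmp16 (MT3-MMP) had peaks at its start and none elsewhere in a gene of 266253 bp. The region at the start (chr4:17852804-17853722, summit 438 bp downstream of the gene record's start and 127 bp upstream of the first basic transcript) was called in all 18 libraries with a median fold of 7.81. It was flanked by a region 831 bp upstream, called in 12 libraries, and by a region 1110 bp downstream (chr4:17853827-17854179), called in 4.

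Mmp24 (MT5-MMP, an enzyme known from neurons) had regions called in all 18 libraries at its start (chr2:155775146-155776286, summit 331 bp downstream), in an intron 36593 bp downstream (chr2:155811705-155812124) and 10162 bp upstream. Peaks of the last one crossed the edge of the window in only 7 libraries. All 3 ranked low, with median percentiles of 14.4, 9.16 and 7.94. A further intronic region 31425 bp downstream was called in 9 libraries.

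The inhibitors lie in unusual surroundings, since Timp1, Timp3 and Timp4 are each nested within a synapsin gene on the opposite strand (Syn1, Syn3 and Syn2). The Timp1 window held 1 recurring region, called in 13 libraries, 7865 bp upstream of the Timp1 start (chrX:20861751-20863081) and within Syn1. Timp4 had no peak in any of the 18 lists, as did 22.0% of protein-coding genes. Whether a region within a synapsin gene serves the host or the inhibitor cannot be read from peaks.

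Timp2, the inhibitor that also binds proMMP2, had the strongest start of the inhibitors. Its start region (chr11:118354797-118355829) was called in all 18 libraries with a median fold of 7.79 and a median percentile of 38.0. An intronic region 38404 bp downstream was also called in all 18, and regions 32876 bp downstream and 7667 bp upstream in 15 and 14. Weaker regions 28106 bp downstream, in an intron, and 13203 bp downstream were called in 4 and 3 libraries, and the latter lies at the start of Cep295nl, a gene inside Timp2.

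Timp3, the inhibitor that binds to the extracellular matrix, had its only region called in all 18 libraries 4005 bp upstream of the start (chr10:86296136-86296555). This region ranked low, with a median percentile of 6.14. On lists cut to an equal number of peaks it was called in 16 libraries, as was the intronic region 39439 bp downstream. The region at the Timp3 start (chr10:86300367-86300714, in the 5′ UTR) was called in 14 libraries, at low folds of 3.34 to 5.64. Intronic regions 2532 and 39439 bp downstream were called in 17 libraries each. Those 15380 and 21117 bp downstream were called in 9 and 7.

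**Figure D2:**
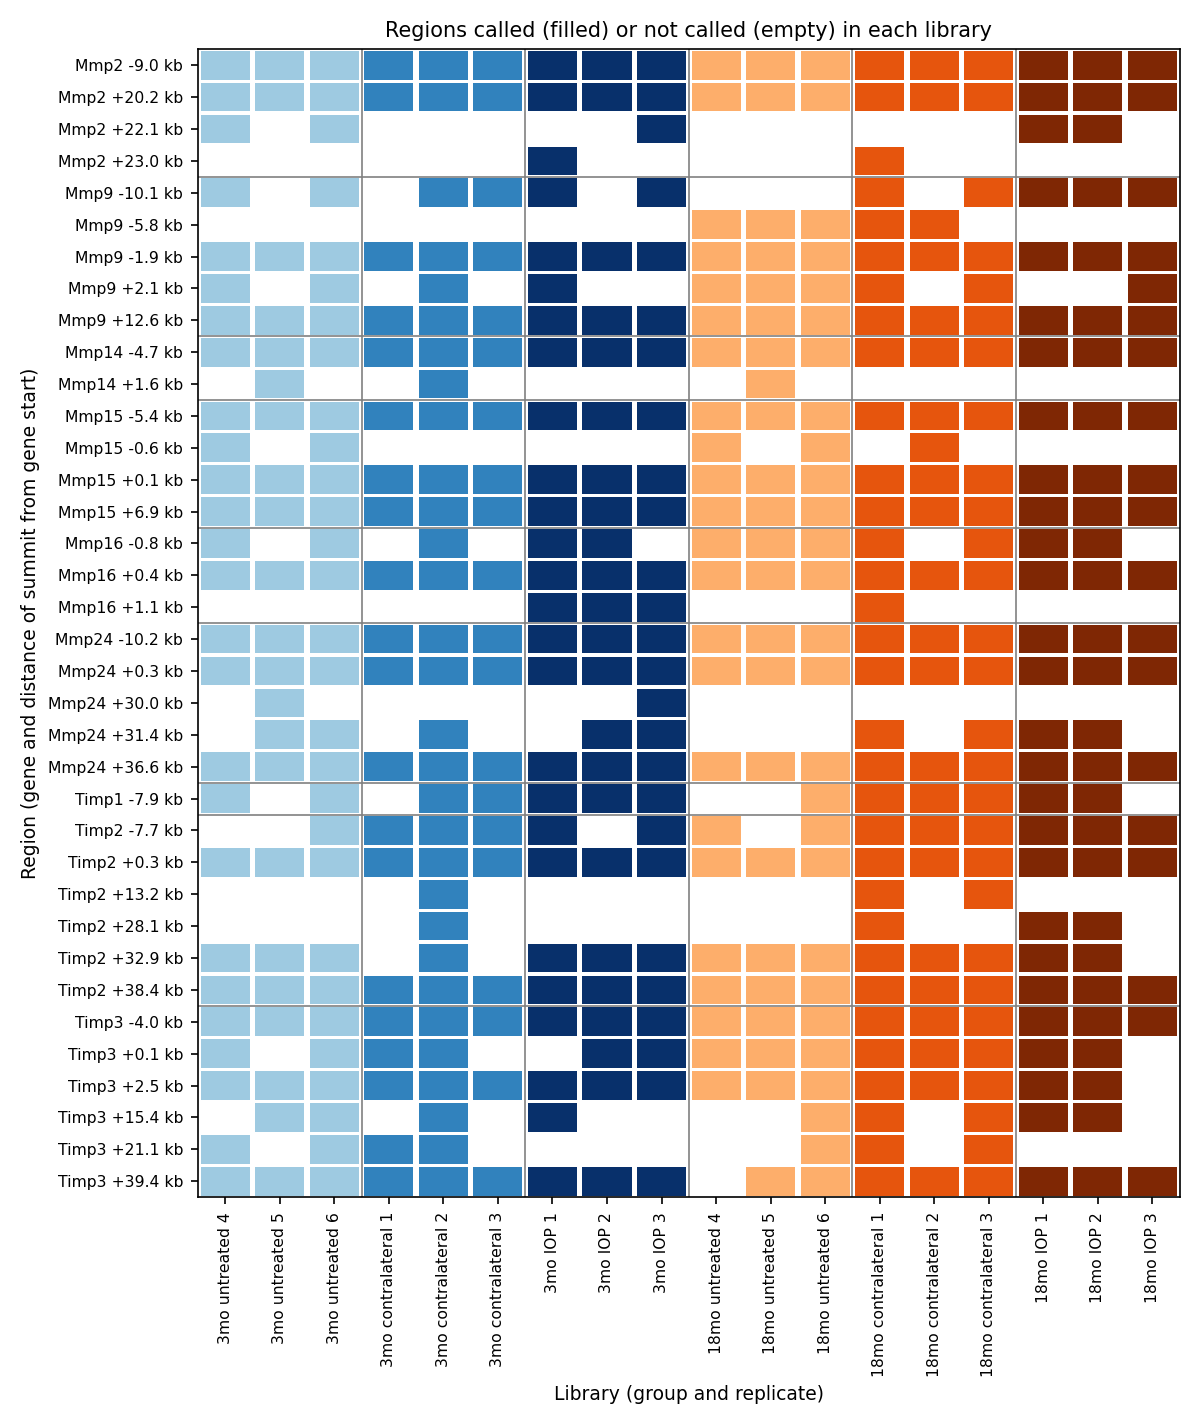
Horizontal lines of cells are the 36 regions called in at least 2 libraries, named by gene and distance of the summit from the gene start in kb, and columns are the 18 libraries by group and replicate. A filled cell is a call. Filled throughout are 15 regions, that 5783 bp upstream of the Mmp9 gene record's start is filled in 5 of 6 18mo controls and nowhere else, and that 1110 bp downstream of the Mmp16 start is filled in the 3 3mo IOP libraries and in 18mo contralateral replicate 1.

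The first comparison asked what differed with age, in 6 control retinas of 18mo against 6 of 3mo. No member differed in its number of peaks. The windows of the 10 genes together held 20, 33 and 21 peaks in the 3mo contralateral controls, 31, 27 and 31 in 3mo untreated, 34, 23 and 31 in 18mo contralateral and 25, 26 and 32 in 18mo untreated retinas. These ranges overlapped between the ages. Differences of the means (18mo minus 3mo) ran from -0.667 peaks in Mmp24 to 1.17 in Timp2, and 0 of the 9 members with peaks had an unadjusted p under 0.05 (exact permutation test, two-sided, 924 arrangements; smallest unadjusted p = 0.318, all adjusted p = 1.00). Over all 16615 genes tested 1.78% had an unadjusted p under 0.05, 264 of them higher and 32 lower at 18mo (185 and 125 on lists cut to an equal number of peaks), and 0 an adjusted p under 0.05. These counts became 600 and 31 without 3mo contralateral replicate 2 and 579 and 29 without 3mo untreated replicate 6.

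Among the 36 regions called in at least 2 libraries, 1 was called in 18mo controls only. It lay 5783 bp upstream of the Mmp9 gene record's start and 13222 bp upstream of the first basic transcript. This intergenic region was called in 2 of 3 18mo contralateral and 3 of 3 18mo untreated libraries and in 0 of the 6 3mo controls. Its fold was 3.37 and 3.06 in 18mo contralateral replicates 1 and 2, and 7.90, 4.59 and 5.00 in 18mo untreated replicates 4, 5 and 6. It was called in 0 of the 6 IOP libraries, 18mo included. Fisher's exact test (two-sided) gave p = 0.0152 and an adjusted p of 0.424 over 9868 regions, of which 3.58% had an unadjusted p under 0.05, so the difference did not pass. It was the only one of 6 testable member regions with such a p. On lists of equal length the region was called in 1 library of the 18, an 18mo untreated one. Among the untreated retinas alone it was called in all 3 libraries of 18mo and none of 3mo, as were 0.892% of the 73567 regions, and with 3 libraries against 3 the smallest possible p of an exact test is 0.1.

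Of the 15 regions called throughout, 1 had an unadjusted p under 0.05 for rank with age. The intronic region of Mmp15, 6883 bp downstream of its start, ranked at percentiles of 56.2, 37.6 and 44.9 in 3mo contralateral, 51.7, 56.9 and 49.5 in 3mo untreated, 34.3, 48.2 and 30.9 in 18mo contralateral and 45.8, 36.7 and 38.8 in 18mo untreated retinas. The groups overlapped, with a mean of 39.1 ± 6.69 at 18mo and 49.5 ± 7.29 at 3mo (SD, n = 6 each). The difference was -10.4 points (exact permutation test, p = 0.0303, adjusted p = 0.552 over 24751 regions, of which 8.13% had an unadjusted p under 0.05). It did not pass the adjustment. The unadjusted p of the exact permutation test rose to between 0.0519 and 0.0649 when 3mo contralateral replicate 1, 18mo contralateral replicate 1 or 3, any 3mo untreated library or 18mo untreated replicate 5 was left out. Permuted within kind of control, the start regions of Timp2 (-11.2 points, exact p = 0.0150, adjusted p = 0.272) and Mmp16 (-8.96 points, exact p = 0.0200, adjusted p = 0.310) also fell under 0.05 before adjustment. Of all 24751 regions, 1452 were then higher and 1294 lower at 18mo with such a p.

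The second comparison asked what IOP changed, in 6 IOP against 6 contralateral retinas with labels permuted within each age. No member changed its number of peaks. The 10 windows together held 27, 24 and 26 peaks in 3mo IOP against 20, 33 and 21 in 3mo contralateral, and 28, 27 and 18 in 18mo IOP against 34, 23 and 31 in 18mo contralateral retinas. Differences of the means (IOP minus contralateral) ran from -1 in Timp2 and Timp3 to 0.667 in Mmp16, and 0 of 9 members had an unadjusted p under 0.05 (exact permutation test, two-sided, 400 arrangements; smallest p = 0.295, all adjusted p = 1.00). Over 16547 genes 1.20% had an unadjusted p under 0.05, 21 higher and 178 lower with IOP (139 and 47 on lists of equal length), and 0 passed the adjustment. They became 22 and 528 without 3mo contralateral replicate 1, 22 and 467 without 3mo contralateral replicate 3, and 31 and 297 without 3mo IOP replicate 1.

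**Figure D3:**
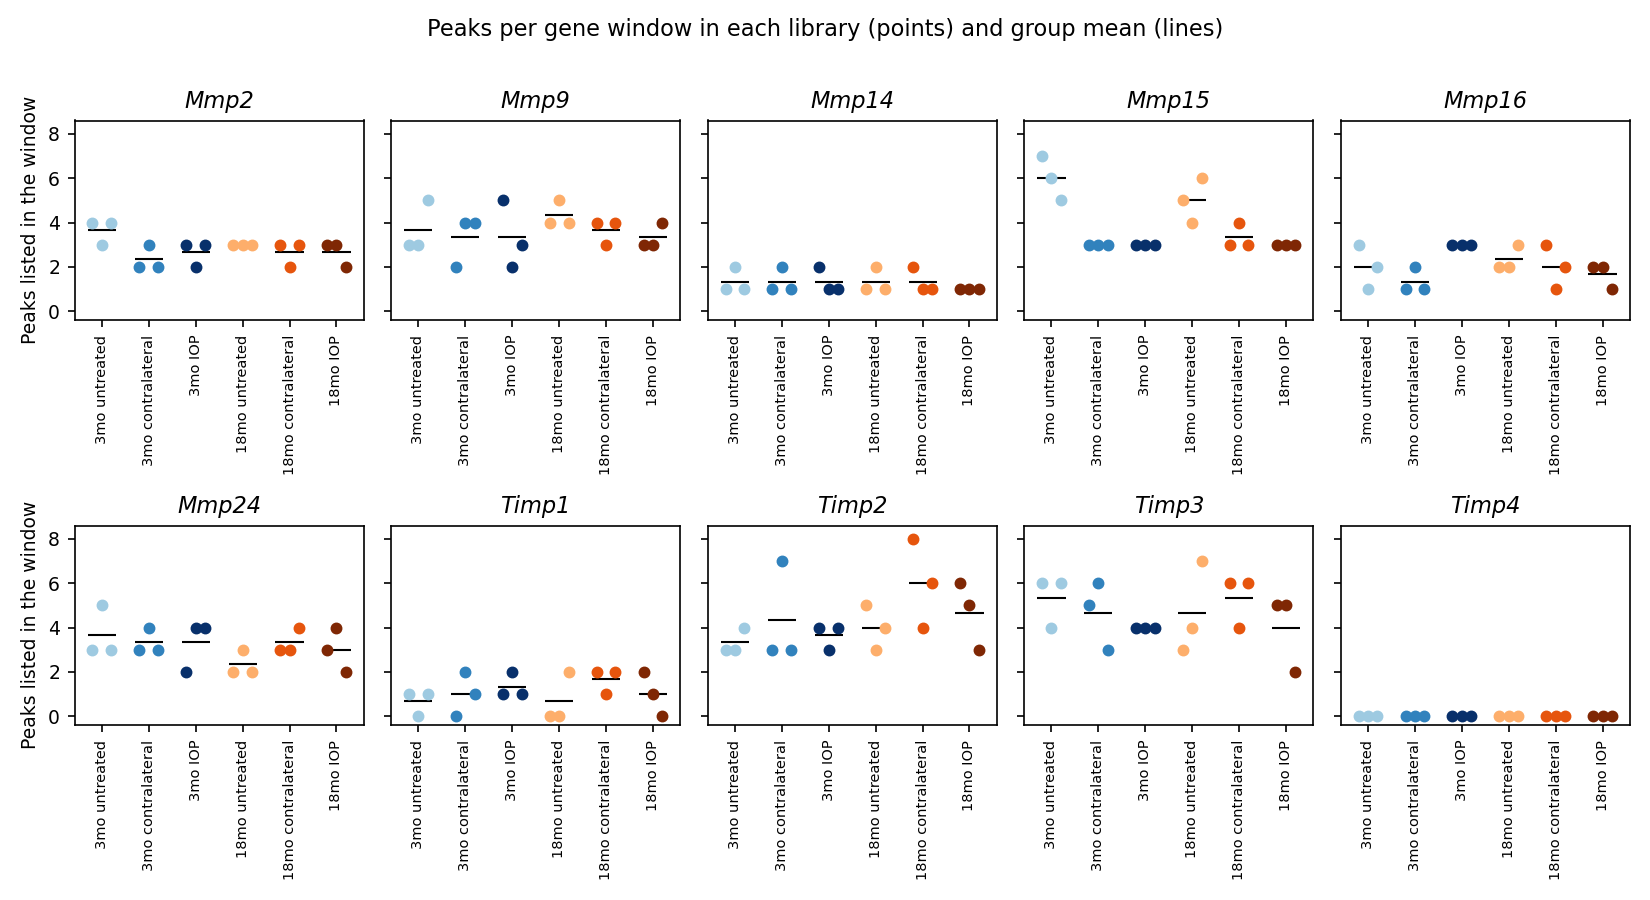
Points are the number of peaks listed in each gene window (y axis) in each library of the 6 groups (x axis), and lines are the group means of 3 libraries. The 3 3mo IOP libraries stand at 3 peaks in Mmp16, the 6 untreated libraries at 4 to 7 in Mmp15 against 3 to 4 in the contralateral ones, and Timp4 is at 0 in all.

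Mmp16 was the 1 member whose groups did not overlap at an age. Its window held 3 peaks in each 3mo IOP library against 1, 2 and 1 in the 3mo contralateral controls, and 2, 2 and 1 in 18mo IOP against 3, 1 and 2 in 18mo contralateral libraries. The untreated retinas held 3, 1 and 2 peaks at 3mo and 2, 2 and 3 at 18mo, but their libraries differed in the technical measure given above. In the background 0.329% of 16104 genes were higher in all 3mo IOP libraries than in all 3mo contralateral ones, and the smallest possible p of an exact test is 0.1. The IOP effect differed between the ages by -2 peaks (18mo minus 3mo; exact permutation test, p = 0.0950, adjusted p = 1.00), with 0 of 9 members and 0.308% of all genes under an unadjusted 0.05. Leaving 18mo contralateral replicate 2 out brought the unadjusted exact permutation p to 0.0300 (adjusted p = 1.00).

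Part of this count came from the intronic region 1110 bp downstream of the Mmp16 start. It was called in 3mo IOP replicates 1, 2 and 3 at folds of 3.05, 5.34 and 4.26, in none of the 3mo contralateral or untreated libraries, in 18mo contralateral replicate 1 at 3.70-fold and in no 18mo IOP library. Regions called in all 3mo IOP and no 3mo contralateral libraries made up 0.217% of the 73567 regions. On lists of equal length 2 of the 3 3mo IOP libraries still called it. The start region of Mmp16 next to it was called in every library, as 1 peak in each contralateral library and as 1 to 2 peaks in the IOP ones. Such a split entered the count of 3 peaks in each 3mo IOP library, since the region 831 bp upstream was called in 2 of those 3.

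Calls of the member regions gave no difference with IOP. At only 3 of them did the number of calls at each age let the exact conditional test reach 0.05. The exact conditional test gave p = 1.00 at each (Mmp9 2085 bp downstream, Mmp16 831 bp upstream and Mmp24 31425 bp downstream). By the same exact test, 5.04% of 5572 testable regions had an unadjusted p under 0.05 and 0 passed the adjustment. In Timp3 the intronic region 21117 bp downstream was called in 4 of 6 contralateral and 0 of 6 IOP libraries. With 2 calls at each age the exact conditional test could not fall under 0.05 there. The exact p did so when 3mo contralateral replicate 3 or 18mo contralateral replicate 2 was left out (p = 0.0200 in both, adjusted p = 0.297 and 0.470).

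A region of Mmp9 ranked higher with IOP before adjustment. The region lay 1949 bp upstream of the gene record's start and 9388 bp upstream of the first basic transcript. It stood at percentiles of 53.7, 44.7 and 48.5 in 3mo IOP against 35.6, 53.5 and 26.1 in 3mo contralateral, and at 50.4, 50.8 and 50.7 in 18mo IOP against 43.6, 44.7 and 32.3 in 18mo contralateral libraries. The groups overlapped at 3mo and did not at 18mo, where 8.42% of the 24751 regions ranked higher in all 3 IOP than in all 3 contralateral libraries. The difference was 10.5 points (49.8 ± 2.98 against 39.3 ± 9.88, SD, n = 6 each; exact permutation test, p = 0.0450, adjusted p = 0.553), and 8.14% of regions had an unadjusted p under 0.05. Permuted within age and class of shortest peak it was 8.59 points (exact p = 0.00926, adjusted p = 0.270). Leaving out any 1 library other than 3mo contralateral replicate 2 or 18mo contralateral replicate 1 or 2 gave exact p-values above 0.05, up to 0.115. Untreated libraries, which differed in the technical measure given above, ranked it at 24.1 to 54.2, a range that held every IOP value.

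**Figure D4:**
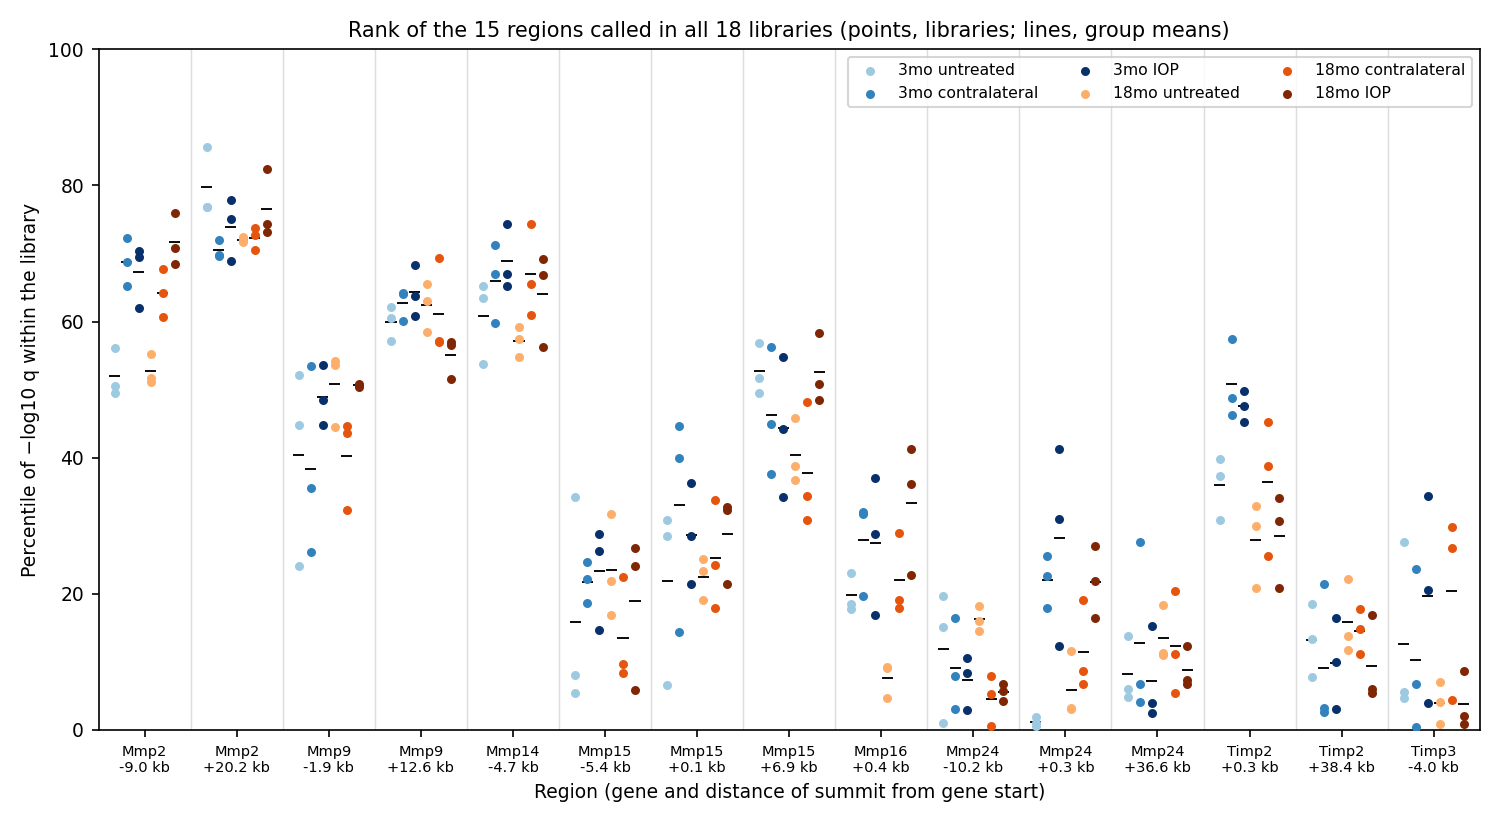
Points are the percentiles of −log10 q within each library (y axis, 100 the strongest) of the 15 member regions called in all 18 libraries (x axis, gene and distance of the summit from the start in kb), coloured by group, with lines at the group means. Regions of Mmp2 and that at the Mrpl52 start upstream of Mmp14 lie highest, that 4005 bp upstream of Timp3 and those of Mmp24 10162 bp upstream and 36593 bp downstream lowest, and untreated libraries lie below the contralateral ones at the region 8953 bp upstream of Mmp2.

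The third comparison set the 6 untreated against the 6 contralateral controls, with labels permuted within each age. This contrast and the technical measure given above cannot be told apart. Mmp15 had more listed peaks in untreated retinas, with 7, 6 and 5 at 3mo and 5, 4 and 6 at 18mo against 3, 3 and 3 and 3, 4 and 3 in the contralateral controls. The difference was 2.33 peaks (exact permutation test, 400 arrangements, p = 0.0100, adjusted p = 0.313), the only member of 9 with an unadjusted p under 0.05, against 8.51% of all genes (7.25% higher in untreated retinas, with 1205 higher and 209 lower, or 1026 and 579 on lists of equal length). At 3mo the groups did not overlap, as for the 7.13% of genes higher in all 3mo untreated than in all 3mo contralateral libraries. Mmp2 (0.833 more peaks, exact p = 0.1) fell under 0.05 without 18mo contralateral replicate 1 or 3 (0.917 more, exact p = 0.0400, adjusted p = 0.430 and 0.446). The bases covered went the other way and fell by 607 bp in Mmp15 (exact permutation test, p = 0.00500, adjusted p = 0.0111), and 12228 of 16615 genes fell likewise with an unadjusted p under 0.05. The start region of Mmp15 was listed as 1 peak in every IOP and contralateral library and as 2 to 3 narrower peaks in the untreated ones.

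Ranks of the regions called throughout also differed between the kinds of control. Untreated retinas ranked the region 8953 bp upstream of Mmp2 at 49.5 to 56.1 and contralateral ones at 60.6 to 72.2, with no overlap (difference -14.1 points, exact permutation test, p = 0.00500, adjusted p = 0.0309). Of all 24751 regions, 6.05% ranked lower in all 6 untreated than in all 6 contralateral libraries. The start region of Mmp16 differed by -11.2 points (exact permutation test, p = 0.0100, adjusted p = 0.0446), with ranges of 4.69 to 23.0 and 18.0 to 32.0 that overlapped. Its adjusted p was 0.0553 to 0.0797 without 3mo contralateral replicate 2 or 3 or any 1 untreated library. Before adjustment the start regions of Mmp24 (-13.2 points, p = 0.0150) and Timp2 (-11.7 points, p = 0.0200) and the Mrpl52 start upstream of Mmp14 (-7.51 points, p = 0.0450) were lower too by the exact permutation test. These were 2 of 15 member regions with an adjusted p under 0.05, where 22.4% of all 24751 regions had one (11.7% lower in untreated retinas), and 5 of 15 unadjusted, against 38.3% (19.8% lower). The 5550 regions with an adjusted p under 0.05 became 2924 to 3318 without 3mo contralateral replicate 1 or 3 or any 1 untreated library. Calls differed in 0 of the 4 testable member regions, against 18.2% of all testable regions.

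Other genes of the same system were examined through lists of proteases, activators, receptors and matrix proteins. Of 16 other Mmp genes, Mmp11 and Mmp17 had a called start in all 18 libraries, 12 had none and 9 had no peak in their window at all, among them the collagenase and stromelysin genes Mmp13, Mmp3 and Mmp10. Called starts in all 18 libraries were found for 5 of 14 activators, receptors and inhibitors, for 4 of 8 ADAM and ADAMTS proteases and for 4 of 8 basement membrane and matrix proteins, against 4 of the 10 genes described above. Of all protein-coding genes, 50.8% had a called start in all 18 libraries, 36.3% had one in none and 22.0% had no peak in the window. Adam10, Adam17, Reck, which encodes a membrane-anchored inhibitor, and Bsg, which encodes an inducer of Mmp expression, were among the open ones. In the age comparison no tested gene of these lists had an unadjusted p under 0.05.

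With IOP, Plg, which encodes plasminogen, was the only listed gene with an unadjusted p under 0.05, with a difference of -1.33 peaks (exact permutation test, p = 0.0200, adjusted p = 1.00), where 1.20% of all genes had one. Between kinds of control, Mmp23 (0.833 more peaks in untreated retinas, p = 0.0200), Adamts4 (1.67 more, p = 0.0350) and Thbs1 (a difference of -1, p = 0.0200) had one by the exact permutation test, where 8.51% of all genes did, and none passed the adjustment. The median difference over the other Mmp genes that could be tested was 0.0833 peaks with age (6 genes) and 0 with IOP (5 genes). Over all genes tested it was 0 and -0.167.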

How the data were processed

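ATAC-seq peaks of 18 mouse retina libraries, 3 in each of 6 groups, were compared. The authors called peaks in each library separately with MACS2 (2.2.7.1 and a q-value threshold of 0.05 per the study's text) on mm10. The submitters' processing notes also name STAR 2.7.8a, HOMER, edgeR and bedtools 2.29.2, with no role given. Trimming, duplicate removal and read shifting are not given in the sources used here. The deposited lists give for each peak its position, a score, the fold of pileup over local background at the summit, and the −log10 of the p-value and q-value, as made by the authors. Reads per library were not used here, so depth is known only through the number of listed peaks.

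From the lists, peaks per gene window, merged regions (overlap of at least 1 bp, kept in at least 2 libraries) and percentile ranks were computed with Python 3.11.15, numpy 2.4.6, scipy 1.17.1 and pandas 2.3.3. The count test of the study needs reads and could not be run on peak lists. Peaks and ranks were tested by exact permutation of libraries (within age for IOP and kind of control), calls by Fisher's exact test for age and an exact conditional test within age otherwise, all two-sided, with Benjamini-Hochberg adjustment over all genes or regions tested. Scripts were tested on simulated data. Alternatives were a stricter threshold, lists cut to 36011 peaks, a window with no upstream sequence, bases covered, 50% cover of a region, ranks by fold, no filter, stratification, a replicate block and leaving out each library. Genes named were all 10 members, and regions named by rule were that at each member's start, those with an unadjusted p under 0.05 in a test of calls or rank, and those called in all 3 libraries of a group and none of its comparison group. Of the gene lists, the rule named genes with an unadjusted p under 0.05. All other regions and listed genes were named after their values were seen. The members and gene lists were chosen with earlier results of these data known.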

Additional observations from a re-analysis of the deposited data

Results flagged for a closer look

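Among 20 groups of peak numbers and 30 groups of percentiles over control libraries of an age, an outlier rule flagged a library in 2. The rule is set to flag about 1 in 20 groups by chance, and the 2 flags are not above that rate. The rate need not hold for small whole numbers with many ties, where a difference of 1 peak can be flagged. In the 18mo controls, 18mo contralateral replicate 2 held 2 peaks in the Mmp2 window, and the other 5 libraries held 3. In the 3mo controls, 3mo contralateral replicate 2 held 7 peaks in the Timp2 window, and the other 5 held 3 to 4. That library also had the longest list, with 66160 peaks.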

How the results depend on the processing

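No member passed the adjustment for age or IOP under any setting run. By bases covered, 1 member (Mmp14, 128 bp, p = 0.0450, exact permutation test) had an unadjusted p under 0.05 with IOP. Of 16547 genes, 151 were higher and 610 lower by that measure. Between kinds of control, 7 members differed in bases covered, all 7 after adjustment, with the Mmp15 difference at -607 bp. There 11866 of 16615 genes passed the adjustment. By number of peaks, 2 members had an unadjusted p under 0.05 between kinds of control on lists of equal length (Mmp15 and Mmp24). There 1026 of 15630 genes were higher and 579 lower. Without upstream sequence 2 members had one (Mmp15 and Mmp2), where 754 of 15495 genes were higher and 221 lower. Calls between kinds of control gave 1 region on lists of equal length, that at the Mmp24 start, where 604 of 3724 regions were higher and 764 lower. When peaks had to cover 50% of a region they gave 5 (5 adjusted, where 6814 of 10543 regions passed). Calls with age gave 0 regions on lists of equal length. Ranks by fold gave 0 regions with age, where 918 of 24751 were higher and 860 lower, and 2 with IOP, where 1046 were higher and 872 lower. Of the 2, that 8953 bp upstream of Mmp2 turned direction (-7.97 points, exact p = 0.00500, adjusted p = 0.436, against 3.06 points by −log10 q). Ranks by fold also put the intronic region of Mmp2 17.1 points higher in untreated than in contralateral retinas (exact p = 0.00500, adjusted p = 0.0297). There 5127 of 24751 regions were higher and 4642 lower, and 5768 passed the adjustment. The exonic region of Mmp9 was also higher before adjustment (12.9 points). Lower were the start regions of Mmp24 (-15.5) and Mmp16 (-18.6) and the region 8953 bp upstream of Mmp2 (-11.1). Age stratified by kind of control gave 3 regions in rank, the start regions of Timp2 and Mmp16 and the intronic region of Mmp15. There 1452 of 24751 regions were higher and 1294 lower. Leaving out 1 library gave 1 to 2 members between kinds of control, where 1084 to 1554 genes were higher and 154 to 497 lower. For IOP by age it gave 0 to 1 members, against 0.308% of genes with all libraries kept. It gave 0 to 1 regions for IOP calls, where 93 to 162 were higher and 218 to 706 lower. For age ranks it gave 0 to 2, where 868 to 1215 of 24751 were higher and 747 to 1204 lower. For IOP ranks it gave 0 to 1, where 921 to 1293 were higher and 734 to 1184 lower. Ranks between kinds of control gave 3 to 5, with 1 to 3 adjusted. There 3996 to 4467 were higher and 4339 to 4705 lower, and 2924 to 5038 passed the adjustment. The causes were not tested.

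The check did not show replicate numbers to pair the libraries. Deviations of same-numbered libraries correlated at -0.314 to 0.333 for IOP and -0.453 to 0.025 for age, and those of other numbers at -0.422 to 0.473 and -0.194 to 0.335, over regions of the genome. Same-numbered IOP and contralateral libraries correlated at 0.184 to 0.333 where both were of the same class of shortest peak and at -0.314 to -0.108 where the classes differed, so whether a number marks an animal cannot be told from this check. With a replicate block, 0 regions differed in calls with age (none was testable), 2 in rank with age (the start regions of Timp2 and Mmp16, exact p = 0.0312 each, while the intronic region of Mmp15 had 0.0938) and 0 in rank with IOP before adjustment. In rank with age, 790 of 24751 regions were then higher and 772 lower. Depth was not measured here. On lists of equal length 12 of the 15 member regions were still called in all 18 libraries. The region at the Mmp24 start was called in 13. Those 10162 bp upstream of Mmp24 and 4005 bp upstream of Timp3 were called in 16 each.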
